A study of Homo sapiens with 17 samples.

Results

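The immediate early genes FOS, FOSB, JUN, JUNB, EGR1, EGR2, EGR3, NR4A1, ATF3 and IER2 were followed through the RNA and histone data of human neurons with and without UTX, the histone H3 lysine 27 demethylase encoded by KDM6A. The 10 genes were taken by name, all 10 were among the 60199 gene symbols of the RNA count table, and all 10 were among the 18614 genes that passed the filter on low counts. Genes were set side by side only across libraries, never in level with each other, because no transcript lengths were used.

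Immediate early genes are transcribed within minutes of a stimulus, from promoters that are already accessible, and need no new protein for it. In neurons the stimulus is usually calcium entry or cyclic AMP, which act through CREB and through serum response factor, and the products are mostly transcription factors that switch on a later set of genes for synapses and secreted peptides. H3K27me3, the mark that UTX removes, is deposited by Polycomb repressive complex 2 and is typical of silenced promoters, whereas H3K36me3 lies over the bodies of transcribed genes.

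The knockout libraries came from lines KO1 (n = 3) and KO2 (n = 2), both of genotype UTX-/-, and the wild-type libraries (n = 3) from H9 cells that keep UTX. All derive from H9, a human embryonic stem cell line, carried through embryoid bodies and neural progenitors to neurons at day 40. All groups were kept in medium with BDNF, GDNF, ascorbic acid and dibutyryl cyclic AMP, a membrane-permeable analogue of cyclic AMP. Whether a line was 1 clone and whether libraries came from separate differentiations was not given in the sources used here, and p-values therefore measure only the spread between these libraries. Polyadenylated RNA was sequenced, and chromatin was precipitated for H3K27me3, for H3K36me3 and with normal rabbit IgG, which the labels give as the antibody of the libraries they title input.

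Library totals were between 17374615 and 31527014 estimated counts. KDM6A itself averaged 33.0 ± 5.5 CPM (counts scaled to a library of 1000000) in KO libraries and 35.7 ± 0.457 CPM in WT libraries (SD, n = 5 and 3), with KO libraries between 25.9 and 40.8 CPM. An edit that leaves the transcript in place cannot be seen in such a count, which therefore does not check the genotype labels. Neuron markers were present in all libraries, with 12 markers summing to between 760 and 4747 CPM in KO and to between 3606 and 5435 CPM in WT. The 14 connective tissue markers summed to between 1031 and 67239 CPM in KO and to between 146 and 1809 CPM in WT. KO1 replicate 2 and both KO2 libraries held 26176 CPM or more of them and are called the high-collagen libraries. Fits without them keep KO1 replicates 1 and 3 as the only KO libraries, and no KO2 library. In bulk RNA, a change in the number of cells of a type and a change in RNA per cell cannot be told apart.

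FOS, FOSB, EGR2, JUNB and ATF3 had means in KO neurons more than 2 times those in WT neurons, while NR4A1 and IER2 averaged 23.5 and 45.9 CPM in KO and 21.6 and 49.0 CPM in WT. The SD of CPM was larger among KO than among WT libraries for all 10 genes, though for IER2 it was 10.2 in KO and 10.0 in WT. Of the 10 genes, 9 had a positive log2 fold change, where 49.4% of all genes tested did, and the median was 1.05 against -0.005 over all genes. With edgeR's quasi-likelihood test and Benjamini-Hochberg adjustment none of the 10 passed 0.05, and neither did any other gene (0% called). At an unadjusted p under 0.05, 4 members were higher and 0 lower, against 17.9% of all genes in either direction and 11.5% upward. In the authors' deposited table, which comes from DESeq2, 3 members (FOSB, EGR2 and ATF3) were higher at an adjusted p under 0.05, against 6.47% of the genes tested here in either direction and 5.23% upward; DESeq2 run here called the same number of members and 5.99% of genes. In the same 3 members every KO library lay above every WT library, an ordering found for 6.29% of all genes, and in none did every KO library lie below (6.16%).

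**Figure D1:**
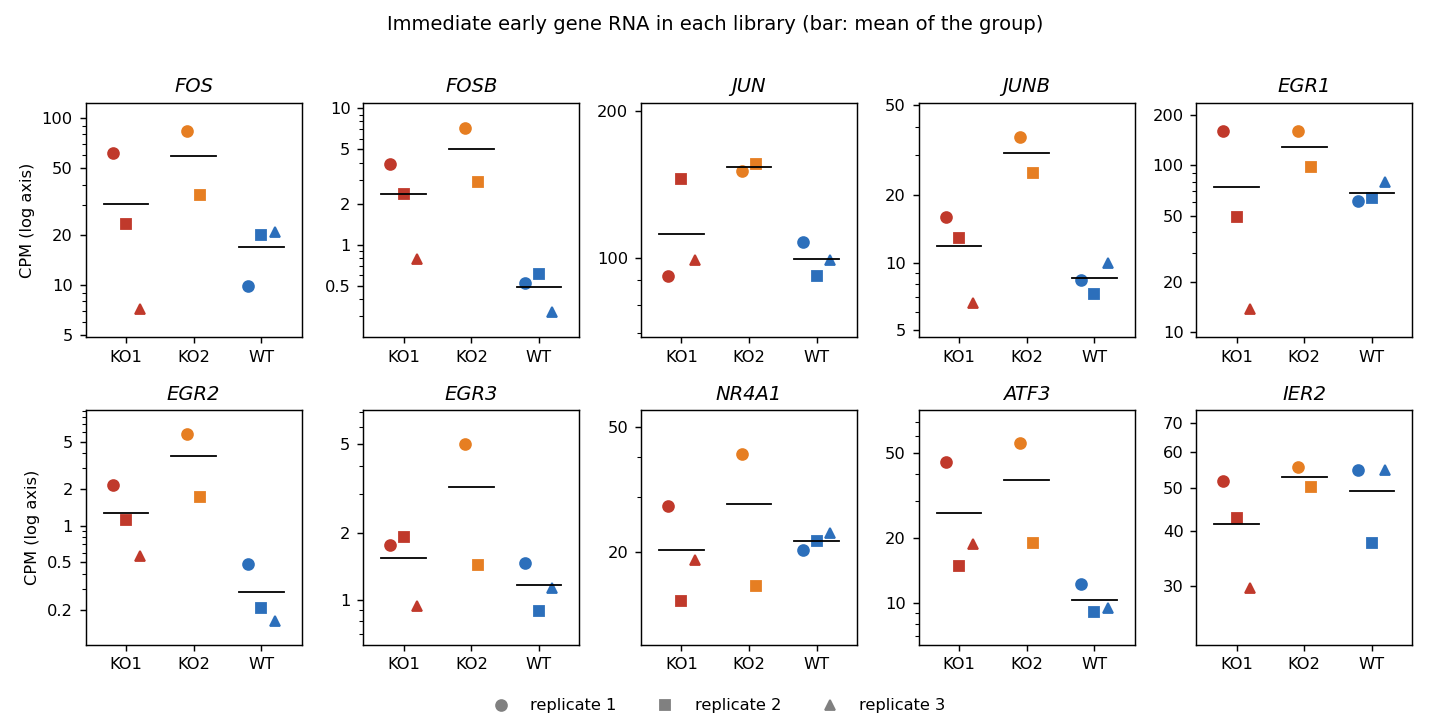
CPM of the 10 immediate early genes in each library on a log axis, with KO1, KO2 and WT from left to right, a symbol for each replicate number and a bar at each group's mean. The WT libraries span a narrower range than the KO libraries, although they run from 9.81 to 20.8 CPM for FOS and from 0.161 to 0.486 CPM for EGR2. KO2 replicate 1 is the highest library for 9 genes, and FOSB, EGR2 and ATF3 are the genes whose KO and WT libraries do not overlap.

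The Fos family supplies the partners that pair with Jun proteins to form the AP-1 transcription factor. FOS, its founding member, had 61.9, 23.2 and 7.17 CPM in KO1, 84.1 and 34.5 CPM in KO2, and 9.81, 19.8 and 20.8 CPM in WT. KO2 replicate 1 and KO1 replicate 1 were the high libraries, KO1 replicate 3 was the lowest of all 8, and the groups overlapped. The means were 42.2 ± 30.8 CPM in KO and 16.8 ± 6.07 CPM in WT (SD, n = 5 and 3). The log2 fold change was 1.33 (SE 0.71, 95% interval -0.31 to 2.97, edgeR adjusted p = 0.335), so a difference was not resolved at this spread between libraries.

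FOSB, which also encodes the long-lived truncated protein that accumulates in neurons after repeated stimulation, had 3.89, 2.36 and 0.793 CPM in KO1, 7.21 and 2.87 CPM in KO2, and 0.527, 0.617 and 0.322 CPM in WT. Every KO library lay above every WT library, although KO1 replicate 3 did so narrowly. The WT values rest on 6 to 18 estimated counts a library and the KO values on 27 to 161, and the means were 3.43 ± 2.39 CPM in KO and 0.489 ± 0.151 CPM in WT (SD, n = 5 and 3). The log2 fold change was 2.78 (SE 0.71, 95% interval 1.16 to 4.4), and the adjusted p was 0.243 in edgeR, whereas the authors' deposited table gives 0.00223.

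The upstream sequences of FOS and FOSB are shown because both hold the cyclic AMP response core TGACG, here in capitals, a few bases apart in distance from the start. The 250 bases before each RefSeq start (GRCh38.p14) are FOS at chr14:75278578-75278827, plus strand, and FOSB at chr19:45467746-45467995, plus strand.
FOS: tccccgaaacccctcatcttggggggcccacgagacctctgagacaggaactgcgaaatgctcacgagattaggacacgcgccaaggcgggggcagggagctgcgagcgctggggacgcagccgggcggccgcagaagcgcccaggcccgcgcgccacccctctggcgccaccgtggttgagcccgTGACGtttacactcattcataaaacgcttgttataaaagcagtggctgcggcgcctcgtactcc
FOSB: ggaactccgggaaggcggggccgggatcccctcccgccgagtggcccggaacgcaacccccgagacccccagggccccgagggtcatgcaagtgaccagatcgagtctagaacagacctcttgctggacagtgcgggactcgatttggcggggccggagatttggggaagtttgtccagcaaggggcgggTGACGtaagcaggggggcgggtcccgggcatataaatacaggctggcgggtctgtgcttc
Counting from the base before the start as -1, the core began at -64 in FOS and at -60 in FOSB. Searched on both strands, TGACG was present at 7 of the 13 RefSeq starts of 9 members, 1 start in each of 7 members, and in 21.2% of all 35116 promoters of the same length. The whole palindrome TGACGTCA, which contains that core, was present in no member and in 1.65% of all promoters, and the AP-1 motif TGANTCA in no member and in 6.57%.

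JUN, the main Jun protein of AP-1, had 91.9, 145 and 99.1 CPM in KO1, 151 and 156 CPM in KO2, and 108, 91.9 and 99.2 CPM in WT. The 3 libraries above the WT range were the high-collagen ones, and the other KO libraries lay within or at the edge of it. The log2 fold change was 0.37 (SE 0.21, 95% interval -0.11 to 0.84, edgeR adjusted p = 0.351), and -0.06 (SE 0.11) without the high-collagen libraries.

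JUNB, which pairs with Fos proteins but often opposes JUN, had 15.9, 12.9 and 6.61 CPM in KO1, 36.2 and 25 CPM in KO2, and 8.39, 7.23 and 9.97 CPM in WT. Both KO2 libraries stood highest, while KO1 replicate 3 was lower than any WT library. The means were 19.3 ± 11.5 CPM in KO and 8.53 ± 1.38 CPM in WT (SD, n = 5 and 3), with a log2 fold change of 1.18 (SE 0.51, 95% interval 0.02 to 2.34, edgeR adjusted p = 0.277). Without the high-collagen libraries the log2 fold change was 0.39.

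ATF3, a CREB-related factor induced by injury and stress that can pair with Jun proteins, had 45.3, 14.8 and 18.9 CPM in KO1, 55.7 and 19.1 CPM in KO2, and 12.2, 9.09 and 9.49 CPM in WT. All KO libraries were above all WT libraries, with KO1 replicate 1 and KO2 replicate 1 far above the other KO libraries. The means were 30.8 ± 18.5 CPM in KO and 10.3 ± 1.69 CPM in WT (SD, n = 5 and 3). On the log2 scale the change was 1.58 (SE 0.49, 95% interval 0.46 to 2.71), with an adjusted p of 0.243 in edgeR, and the authors' deposited table gives 0.0243. Without the high-collagen libraries it was 1.65 (SE 0.36, edgeR adjusted p = 0.433), and ATF3 was then the only member that DESeq2 called (log2 fold change 1.64, adjusted p = 0.00353, with 1.43% of all genes called).

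The EGR genes encode zinc finger factors that bind GC-rich sites. EGR1, used widely as a marker of recently active neurons, had 161, 49.2 and 13.8 CPM in KO1, 161 and 98.1 CPM in KO2, and 61.4, 63.7 and 79.0 CPM in WT. The KO libraries lay on both sides of WT, with KO1 replicates 2 and 3 below and the other KO libraries above. The means were 96.5 ± 65.8 CPM in KO and 68.0 ± 9.56 CPM in WT (SD, n = 5 and 3), and the log2 fold change was 0.50 (SE 0.67, 95% interval -1.05 to 2.06, edgeR adjusted p = 0.684).

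EGR2, known for myelination and hindbrain patterning as well as for its response to activity, had 2.17, 1.12 and 0.558 CPM in KO1, 5.82 and 1.73 CPM in KO2, and 0.486, 0.206 and 0.161 CPM in WT. The groups did not overlap, although the lowest KO1 library and the highest WT library were close. WT values rest on 3 to 12 estimated counts and KO values on 19 to 130. KO exceeded WT by 2.97 on the log2 scale (SE 0.86, 95% interval 0.99 to 4.94), at an edgeR adjusted p of 0.243, whereas the authors' deposited table gives 0.00793.

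EGR3, a relative of EGR1 needed in mice for muscle spindles, had 1.77, 1.91 and 0.94 CPM in KO1, 5.02 and 1.44 CPM in KO2, and 1.46, 0.891 and 1.13 CPM in WT. KO2 replicate 1 stood alone and the other libraries overlapped. KO over WT was 0.93 on the log2 scale (SE 0.56, 95% interval -0.35 to 2.21, edgeR adjusted p = 0.374), and 0.40 without KO2 replicate 1.

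The upstream sequences of EGR1 and EGR2 are shown because they held a CArG box, the site bound by serum response factor. Of the 9 members searched, these were the 2 with such a box in the 250 bases before a start. Sites further upstream were not searched, so the other members may hold one there, and EGR3 was not searched. The sequences shown lie at chr5:138465229-138465478, plus strand, for EGR1 and at chr10:62816367-62816616, minus strand, for the most downstream of 3 EGR2 starts. Capitals mark CArG boxes, the core TGACG or its complement CGTCA, and in EGR1 the EGR motif GCGNGGGCG.
EGR1: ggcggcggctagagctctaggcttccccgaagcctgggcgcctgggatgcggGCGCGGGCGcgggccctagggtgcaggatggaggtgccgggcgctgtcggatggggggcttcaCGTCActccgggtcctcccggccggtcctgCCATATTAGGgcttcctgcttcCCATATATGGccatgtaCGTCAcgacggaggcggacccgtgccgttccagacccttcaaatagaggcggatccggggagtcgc
EGR2: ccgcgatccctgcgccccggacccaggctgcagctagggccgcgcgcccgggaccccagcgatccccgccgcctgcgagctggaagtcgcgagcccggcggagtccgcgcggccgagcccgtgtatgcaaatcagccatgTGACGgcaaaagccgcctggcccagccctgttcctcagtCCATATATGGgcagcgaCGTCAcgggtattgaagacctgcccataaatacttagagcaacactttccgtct
EGR1 held CArG boxes that began at -105 and -83, the core at -135 and -66, and the EGR motif at -198. EGR2 held a CArG box at -71 and the core at -110 and -54. A CArG box was found in 1.16% of all promoters and the EGR motif in 8.41%. The 13 member starts had a median GC content of 65.6% and 19 CpG dinucleotides in these 250 bases, against 58.0% and 11 over all promoters.

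NR4A1, an orphan nuclear receptor induced by calcium and by growth factors, had 27.9, 13.9 and 18.8 CPM in KO1, 41.1 and 15.6 CPM in KO2, and 20.3, 21.6 and 23.0 CPM in WT. Both KO replicate 1 libraries were above the narrow WT range and the other KO libraries below it. Its log2 fold change was 0.12 (SE 0.35, 95% interval -0.70 to 0.93, edgeR adjusted p = 0.87).

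IER2, a nuclear protein induced by serum and growth factors, had 51.6, 42.6 and 29.7 CPM in KO1, 55.6 and 50.2 CPM in KO2, and 54.7, 37.4 and 54.9 CPM in WT. The groups overlapped over most of their range, with KO1 replicate 3 lowest. The log2 fold change was -0.09 (SE 0.22, 95% interval -0.61 to 0.42, edgeR adjusted p = 0.831), so this interval excludes a change of 1 log2 unit in either direction.

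**Figure D2:**
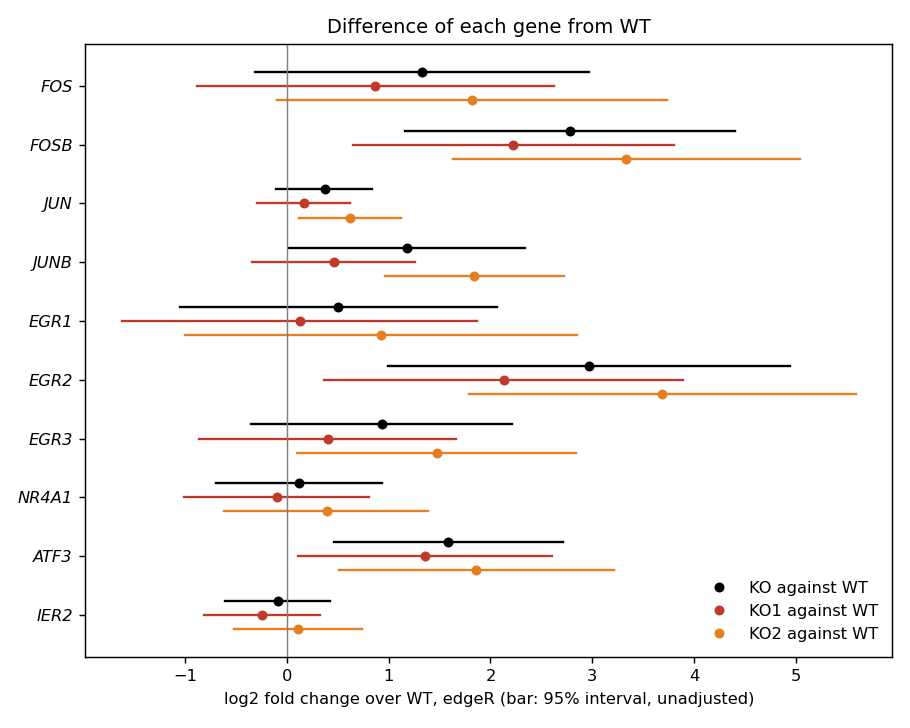
log2 fold change over WT of each immediate early gene with its unadjusted 95% interval from edgeR, for both KO lines together (black), KO1 (red) and KO2 (orange). All 10 KO2 estimates are above 0 and above the KO1 estimate of the same gene, and the intervals of FOSB, EGR2 and ATF3 lie above 0 in all 3 contrasts.

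The lines differed in the size of these estimates. In KO2 against WT all 10 members were positive with a median of 1.64, and in KO1 against WT 8 of 10 were positive with a median of 0.43; the same WT libraries serve in both. At an unadjusted p under 0.05, KO2 against WT held 6 members, all higher (18.3% of all genes, of which upward 10.6%) and KO1 against WT held 3, all higher (8.06%, of which upward 5.62%), namely FOSB, EGR2 and ATF3, and none passed adjustment in edgeR in either. DESeq2 called 4 members in KO2 against WT (4.24% of genes called), FOSB, EGR2, JUNB and ATF3, and 0 in KO1 against WT (0.846%), where 3 members had an unadjusted p under 0.05. KO2 against KO1 gave positive estimates for all 10 members and a median of 0.87. JUNB was the member with an unadjusted p under 0.05 in that contrast (2.24% of all genes, of which upward 1.42%), with a log2 difference of 1.38 (SE 0.37, 95% interval 0.50 to 2.25, edgeR adjusted p = 1.0). DESeq2 called no member there either (0.0401%), with 1 at an unadjusted p under 0.05.

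KO1 replicate 2 decided whether edgeR called members in KO2. Without it, and with the spread estimated from the other 7 libraries, 5 members were called in KO2 against WT (16.7% of all genes called), which were FOSB, EGR2, JUNB, JUN and ATF3 with adjusted p-values between 0.0151 and 0.0466. In KO2 against KO1, JUN was then called with a log2 difference of 0.70 and an adjusted p of 0.0336 (4.95% of all genes called).

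Many members had the same libraries at the top. KO2 replicate 1 was the highest library for 9 members and among the 2 highest for all 10, and KO1 replicate 1 was among the 2 highest for 6. The share of all genes with these libraries at the top is not given here, so the counts do not set the members apart from other genes. KO1 replicate 3 was the lowest library for 4 members, including FOS, EGR1 and JUNB. The order was not common to all members, since KO1 replicate 1 was the lowest library for JUN and a WT library was the lowest for FOSB, EGR2, EGR3 and ATF3. The sum of the 10 genes was 463, 307 and 196 CPM in KO1, 602 and 405 CPM in KO2, and 277, 252 and 298 CPM in WT. The SD of log2 CPM within lines was 1.13 for FOS and 1.15 for EGR1, at percentiles 89.8 and 90.2 of all genes tested, against a median SD of 0.37. JUN and IER2 were steadier, with SDs of 0.24 and 0.33 at percentiles 29.9 and 44.5.

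Markers of other cells moved with KO as well, and their part in these differences was not tested beyond the values given. All 14 connective tissue markers had a positive log2 fold change (median 4.28). COL1A1, a fibrillar collagen, was at 278, 27544 and 258 CPM in KO1, 9226 and 14456 CPM in KO2, and 126, 7.65 and 387 CPM in WT. KO1 replicate 1, second highest for 6 members, held 1275 CPM of connective tissue markers, inside the WT range of 146 to 1809 CPM. The collagens of that library lay inside their WT ranges, but TAGLN, ACTA2, FBN1, PDGFRB and MGP lay above theirs, with TAGLN, an actin-binding protein, at 312 CPM there and 5.97 to 19.1 CPM in WT, and ACTA2, smooth muscle actin, at 151 CPM there and 4.53 to 19.5 CPM in WT. KO1 replicate 2 held the most, 67239 CPM, and its FOS, EGR1 and ATF3 were 23.2, 49.2 and 14.8 CPM. No connective tissue marker was at 0 in any library. Epithelial markers summed to between 23.6 and 530 CPM in KO, highest in KO2 replicate 1, and to between 11.9 and 21.3 CPM in WT. KRT8, KRT19 and CLDN6 were the epithelial markers higher in the authors' deposited table. Endothelial and blood markers summed to between 6.49 and 67.2 CPM in KO and to between 2.35 and 5.15 CPM in WT. Of the 8 listed, 4 were tested and all 4 had a positive log2 fold change. KDR, PTPRC and CD34 were higher in the authors' deposited table (5.23% of all genes tested here). KDR was at 1.91 to 42.5 CPM in KO and 0.811 to 1.66 CPM in WT. PECAM1, the defining endothelial adhesion molecule, was at 0 in 3 KO libraries and 1 WT library. Neural progenitor markers had a median log2 fold change of -0.87 and neuron markers of -0.61, with MAP2 at 160 to 1287 CPM in KO and 780 to 1192 CPM in WT, and SOX2 at 29.5 to 330 CPM in KO and 323 to 363 CPM in WT. The smallest p-values were those of SOX3 (-2.25) and NOTCH1 (-0.87), and of TUBB3 (-0.87) and ELAVL4 (-1.19). Every KO library lay below every WT library in 6 of 11 progenitor markers, SOX3 among them, and in 0 of 12 neuron markers (6.16% of all genes). Of 7 astrocyte markers 4 had a positive log2 fold change (median 0.21), highest in KO2 replicate 1, where they summed to 1056 CPM, against 351 to 507 CPM in WT, and GJA1, a gap junction protein, was the one higher in the authors' deposited table. GFAP, the defining astrocyte filament, was at 41.7 CPM in KO2 replicate 1, at 0.323 to 2.27 CPM in the other KO libraries, and at 0.161 to 4.74 CPM in WT. Without the high-collagen libraries, KO rests on KO1 replicates 1 and 3 alone. The log2 fold changes were then 1.03 for FOS (SE 0.79), 2.21 for FOSB (SE 0.71), 2.2 for EGR2 (SE 0.76) and 1.65 for ATF3 (SE 0.36). They were 0.39 for JUNB, 0.35 for EGR1, 0.21 for EGR3, 0.11 for NR4A1, -0.06 for JUN and -0.27 for IER2. In that fit edgeR called no member, and DESeq2 called ATF3 alone.

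The question raised by the chromatin data was whether H3K27me3 at the promoters of these genes and their RNA differed in the way a repressive mark would imply. The deposited lists hold 10950 H3K27me3 peaks for KO and 10340 for WT, 1 list each with no replicate, so differences between them carry no test. Per the file headers the KO list was called from 37594827 precipitated tags and 45669158 control tags, and the WT list from 22448528 and 23029775 tags. Depth moves with genotype here, and its part in peaks found in KO alone was not tested. Which KO line the list came from was not stated. Fold is the authors' value, precipitated over control signal at the summit of the peak.

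Within 2 kb of a start site, 5 members had a peak in the KO list (16% of 15735 genes with a position) and 2 in the WT list (15.4%). EGR2 and EGR3 had peaks in both lists (13.5% of genes). EGR1, JUNB and NR4A1 had a peak in the KO list alone (2.47%), and 0 members in the WT list alone (1.93%). FOS, FOSB, JUN, ATF3 and IER2 had a peak in neither list within 2 kb of the starts used.

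**Figure D3:**
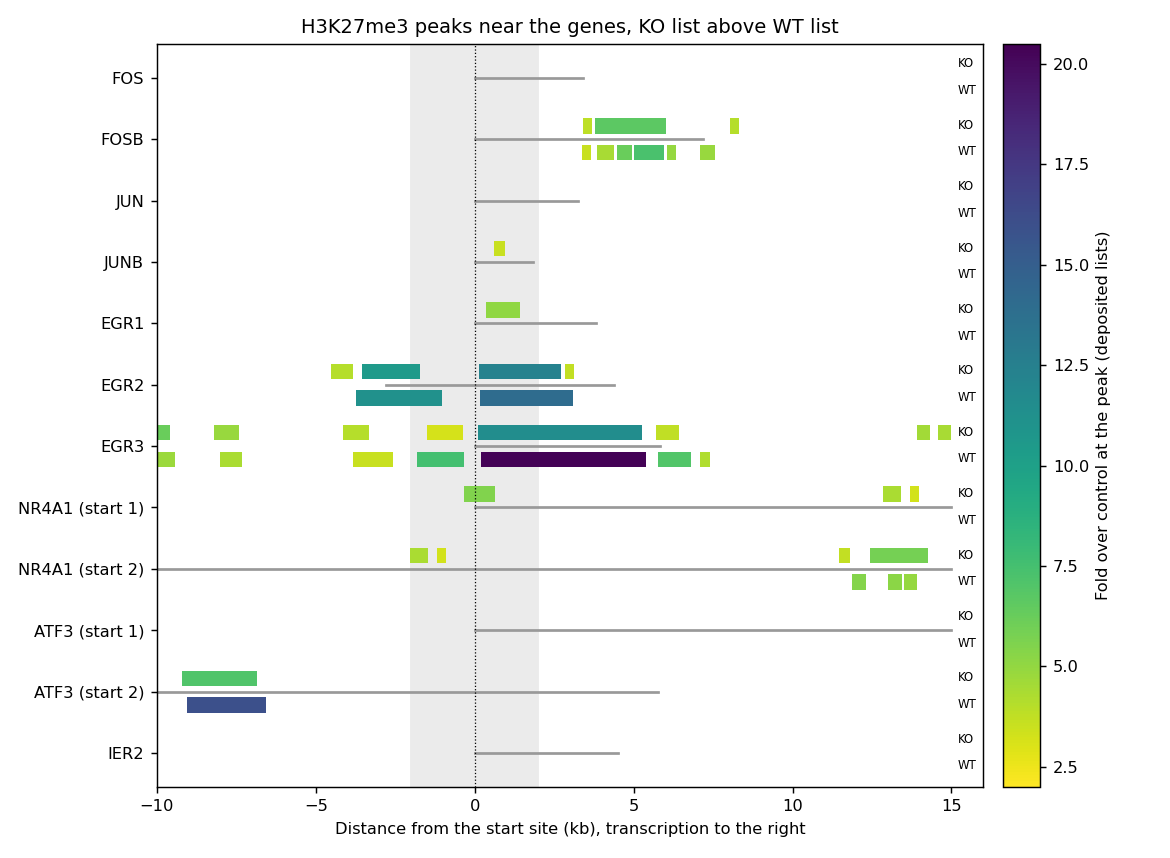
H3K27me3 peaks of the KO list (upper row) and the WT list (lower row) around the start sites, with distance in kb, the gene as a grey line and colour for the fold over control. The shaded band marks 2 kb on each side; EGR2 is drawn from its most downstream start, and EGR3, which has no strand in the tables used, from its end of higher coordinate with lower coordinates to the right. EGR1, JUNB and both NR4A1 starts have KO peaks in the band with no WT peak, and EGR2 and EGR3 have broad peaks in both rows.

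At EGR1 (chr5:138465479-138469303) the KO list held a peak of 1087 bp, from 352 to 1438 bases downstream of the start, with a 5.05-fold enrichment and a −log10 q of 11.1. The nearest WT peak was 190 kb away. That peak lies inside the gene and downstream of the CArG boxes printed above, and it ranked at percentile 62.3 by fold within its list. EGR1 RNA in KO was 13.8 to 161 CPM, against 61.4 to 79.0 CPM in WT.

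At NR4A1 (chr12:52022832-52059503) a KO peak of 987 bp spanned the upstream start, from 352 bases before it to 634 bases after it, with 5.5-fold enrichment and a −log10 q of 11.8. It covers the whole of the upstream sequence shown here, at chr12:52022582-52022831, plus strand, which held none of the motifs searched.
NR4A1: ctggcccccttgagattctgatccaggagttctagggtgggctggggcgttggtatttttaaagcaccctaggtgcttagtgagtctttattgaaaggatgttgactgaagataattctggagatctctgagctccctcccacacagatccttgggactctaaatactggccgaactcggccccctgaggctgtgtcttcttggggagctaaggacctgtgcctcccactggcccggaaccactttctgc
Smaller KO peaks of 563 and 287 bp, at 4.38-fold and 3.25-fold, lay 1461 and 897 bases before the other start. The nearest WT peak began 11.9 kb downstream of that start, inside the gene, where the KO list also had peaks. NR4A1 RNA differed little, as given above.

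At JUNB (chr19:12791486-12793315) the KO peak was short and weak, with 357 bp, 3.52-fold enrichment and a −log10 q of 4.75, at percentile 13.9 by fold within its list. It lay 596 to 952 bases downstream of the start and covered the start of HOOK2 at 12792350, a gene on the opposite strand that overlaps JUNB, so it lies at the promoter of HOOK2 as much as at that of JUNB. HOOK2 RNA averaged 23.8 CPM in KO and 24.1 CPM in WT; whether counting used strand was not given, so RNA reads of the shared stretch may belong to either gene. The peak drops out when a −log10 q of 5 or an overlap of 500 bp is required.

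EGR2 (chr10:62811996-62819167) and EGR3 were Polycomb-marked in both genotypes. In EGR2 a 2587-bp KO peak of 12.4-fold and a 2943-bp WT peak of 14.0-fold began 143 and 152 bases downstream of the start whose sequence is printed above. Further peaks, 1812 bp at 10.5-fold in KO and 2688 bp at 11.2-fold in WT, covered the other 2 starts. Peaks covered 55.3% of the gene in KO and 65.5% in WT. EGR3 was covered over 90.8% of its length in KO and 90.3% in WT, mainly by a peak of 5159 bp at 11.5-fold in KO and of 5189 bp at 20.4-fold in WT. Fold values come from lists of different depth and were not compared between genotypes. EGR2 thus carried a peak in both lists while its RNA was higher in every KO library than in any WT library.

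The members without a peak within 2 kb of a start used fell into 2 kinds. FOSB (chr19:45467996-45475179) had peaks over its 3′ portion in both lists, beginning 3.39 kb downstream of the start in KO and 3.36 kb in WT and covering 35.4% of the gene in KO and 36.7% in WT. ATF3 had a peak inside the gene, 6.84 kb upstream of its downstream start in KO and 6.57 kb in WT, at 7.12-fold in KO and 16.0-fold in WT. FOS, JUN and IER2 had none nearby: the nearest peak to FOS was 666 kb away in KO and 150 kb in WT, to JUN 206 kb in both, and to IER2 47.6 kb in both.

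H3K36me3 gave little over these genes. ATF3 had a peak of 231 bp in the KO list, at 3.36-fold, and NR4A1 a peak of 311 bp in the WT list, at 4.35-fold, and the other 8 members had none in the gene or within 5 kb of it. The 2 H3K36me3 lists differ widely in size, with 8937 peaks in KO and 30144 in WT.

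**Figure D4:**
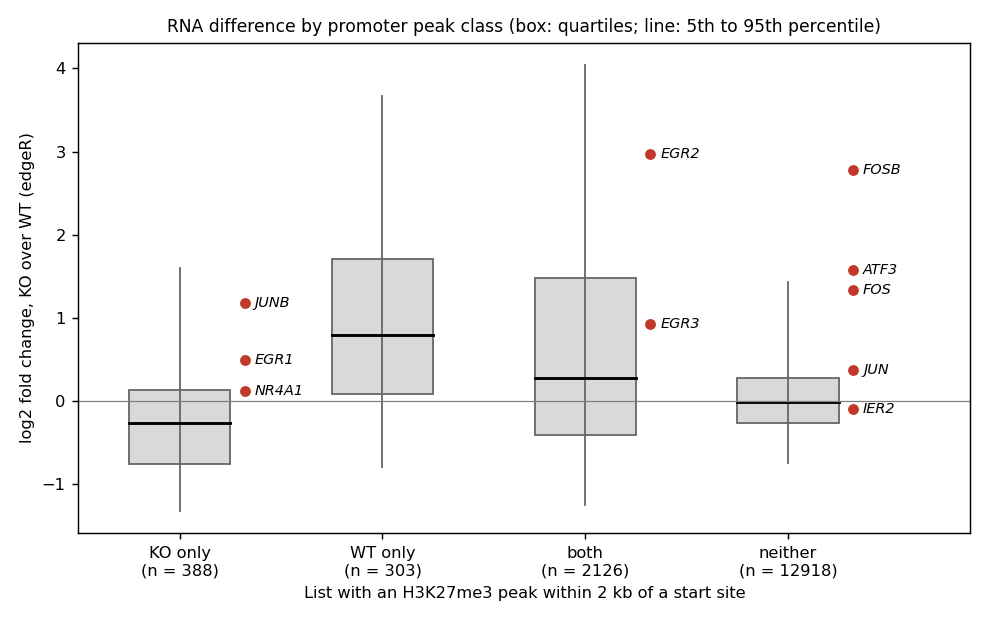
log2 fold change of RNA, KO over WT, for genes with a promoter H3K27me3 peak in the KO list alone, the WT list alone, both or neither, with quartiles (box), median (bar) and 5th to 95th percentile (line). The 3 immediate early genes with a peak in KO alone (red points) lie at 0.12 to 1.18, above that class's median of -0.26.

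Over all genes, the 388 with a promoter peak in the KO list alone had a median log2 fold change of -0.26, and 32.5% of them were above 0. The 303 with a peak in the WT list alone had a median of 0.80, with 79.9% above 0, and the 12918 with a peak in neither had a median of -0.01. EGR1 (0.50), JUNB (1.18) and NR4A1 (0.12) were all positive, at percentiles 83.8, 92.3 and 74.0 of the class with a KO peak alone. EGR2 (2.97) and EGR3 (0.93) lay at percentiles 89.7 and 65.8 of the class with a peak in both. FOSB (2.78), ATF3 (1.58) and FOS (1.33) lay at percentiles 98.2, 95.7 and 94.5 of the class with neither, and JUN (0.37) and IER2 (-0.09) at 79.4 and 41.1. The class of ATF3 holds only for the starts used. With the whole gene and 2 kb on each side, ATF3, FOSB and NR4A1 each had a peak in both lists. In KO against WT none of the RNA differences of EGR1, JUNB and NR4A1 was called by edgeR or DESeq2. The sign was unstable for NR4A1, at -0.10 in KO1 against WT, -0.17 without KO2 replicate 1 and -0.04 with the replicate number as a block, and for EGR1, at -0.10 with that block. JUNB was called in KO2 against WT by DESeq2 (adjusted p = 0.00182).

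Among 16 relatives and partners of the members, 12 were tested, 10 had a positive log2 fold change (median 1.05) and 3 were higher in the authors' deposited table. FOSL2, a Fos protein of AP-1, had 37.6, 52.0 and 17.6 CPM in KO1, 120 and 51.2 CPM in KO2, and 10.8, 5.76 and 6.17 CPM in WT. Its groups did not overlap, with KO higher, as for 6.29% of all genes. Its log2 fold change was 2.88 (SE 0.62, edgeR adjusted p = 0.243, and 8.61e-05 by the authors' deposited table). FOSL2 had the reverse chromatin pattern to EGR1: 3 WT peaks within 2 kb of its start, the strongest 8.21-fold over 1203 bp at chr2:28393535-28394737, and none in KO. JDP2, a repressor that pairs with Jun proteins, also had a WT peak alone, and its log2 fold change was 2.6 with all libraries and -0.18 without the high-collagen ones. IER3, a stress-induced regulator of survival, averaged 52.2 ± 38.7 CPM in KO and 5.55 ± 2.08 CPM in WT (SD, n = 5 and 3), with no overlap. NR4A2, the closest relative of NR4A1, averaged 6.18 ± 4.4 CPM in KO and 6.13 ± 1.37 CPM in WT. NR4A3 reached 52.6 CPM in KO2 replicate 1, against 1.77 to 4.15 CPM in WT.

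Of 30 other immediate early genes, 22 had a positive log2 fold change (median 0.97), against 49.4% of all genes. At an unadjusted p under 0.05, 12 were higher (11.5% of all genes) and 2 lower, and 10 were higher in the authors' deposited table (5.23%). These 10 were the matrix proteins CCN1 and CCN2, the RNA-binding proteins ZFP36 and ZFP36L2, the transcription factors KLF2, KLF4, BHLHE40 and CSRNP1, the kinase PLK2 and the stress sensor GADD45B. Except for CSRNP1, each was higher in every high-collagen library than in any other library. ZFP36 was at 9.68 to 15.2 CPM there, 2.53 and 1.91 CPM in the other KO libraries, and 0.754 to 2.15 CPM in WT. CCN2 had 192, 729 and 22.8 CPM in KO1, 967 and 572 CPM in KO2, and 24.0, 4.25 and 31.3 CPM in WT, so KO1 replicate 3 fell within the WT range. GADD45B averaged 19.3 ± 13.9 CPM in KO and 0.409 ± 0.295 CPM in WT (SD, n = 5 and 3), with a log2 fold change of 5.59 (SE 1.22, edgeR adjusted p = 0.243). KLF2 had 45.9 CPM in KO1 replicate 2 and 3.9 and 16.4 CPM in KO2, but 0.657 and 0.382 CPM in the other KO1 libraries, against 0.268 to 0.343 CPM in WT. NPAS4, a factor induced by calcium in neurons, had 15.1, 3.48 and 2.47 CPM in KO1, 19.4 and 2.82 CPM in KO2, and 0.122, 3.57 and 0.536 CPM in WT. Its highest libraries were the same as those of FOS and EGR1, and its groups overlapped.

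Of 18 activity-regulated neuronal effectors, 16 had a positive log2 fold change (median 0.68) and 6 were higher in the authors' deposited table: BDNF, RGS4, INHBA, PTGS2, PENK and RASGRF2. BDNF, a neurotrophin and target of CREB, had 13.1, 16.3 and 7.34 CPM in KO1, 19.7 and 15.0 CPM in KO2, and 1.42, 3.19 and 2.36 CPM in WT. Its groups did not overlap, with KO higher, as for 6.29% of all genes. The log2 fold change of BDNF, 2.62 (SE 0.40), came with an edgeR adjusted p of 0.243, where the authors' deposited table has 1.06e-07. RGS4, a brake on G protein signalling, had 16.6, 5.5 and 16.0 CPM in KO1, 32.0 and 7.38 CPM in KO2, and 5.03, 5.14 and 2.31 CPM in WT. BDNF, RASGRF2, INHBA, PTGS2 and PENK were highest in the high-collagen libraries, BDNF narrowly so. PENK, the enkephalin precursor, was at 324 to 550 CPM there, 6.37 and 7.05 CPM in the other KO libraries, and 2.25 to 8.37 CPM in WT.

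Of 16 transcription factors and coactivators that act on these promoters, 14 had a positive log2 fold change, with a median of 0.19, against 49.4% of all genes. ELK3, a ternary complex partner of serum response factor, was the one higher in the authors' deposited table (5.23% of all genes). It was at 37.4 ± 26.5 CPM in KO and 5.61 ± 0.81 CPM in WT (SD, n = 5 and 3). SRF averaged 60.8 ± 10.6 CPM in KO and 49.2 ± 5.35 CPM in WT, and CREB1 96.9 ± 8.24 CPM in KO and 104 ± 4.65 CPM in WT (SD, n = 5 and 3). Of 16 kinases, 6 were positive (median -0.11), with PRKACA, the catalytic subunit of protein kinase A, at 0.45 (SE 0.17) and RPS6KA4 at 1.04 (SE 0.40). Of 13 feedback inhibitors, 7 were positive (median 0.18), with SPRY4 at 1.71 (SE 0.67) and SPRED1 at 0.33 (SE 0.14). No gene of the upstream kinases or feedback inhibitors passed 0.05 after adjustment in edgeR or in the authors' deposited table. Heat shock genes had a median log2 fold change of 0.14, and HSPB1 was the one of 7 tested that the authors' deposited table called (6.47% of all genes). SOCS3, a feedback inhibitor of cytokine signalling, was also higher in the authors' deposited table, at 18.8, 33.3 and 5.17 CPM in KO1, 46.8 and 52.2 CPM in KO2, and 6.2, 5.52 and 7.72 CPM in WT.

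The genes most like FOS across libraries were sought among 18613 genes by the root mean square difference of log2 CPM, each gene centred on its mean over the 8 libraries. RASEF (0.46), TLCD1 (0.51) and RAB11FIP1 (0.51) were among the 5 nearest, along with 2 genes that have clone-based symbols only. EGR1 ranked 7 (0.54) and JUNB 16 (0.59). The other members ranked lower, with EGR3 at 121, ATF3 at 165, FOSB at 224 and NR4A1 at 815. IER2 was at 1382, EGR2 at 1429 and JUN at 2746. The genes most like EGR1 were SLC16A6 (0.47), POU4F1 (0.47), NHLRC1 (0.48), POU4F2 (0.52) and PAX8 (0.54), with FOS at rank 7 (0.54). JUNB was at rank 42, IER2 at 138, EGR3 at 201 and NR4A1 at 321. ATF3 was at 2383, JUN at 2807, FOSB at 12505 and EGR2 at 14502, so the members did not share 1 profile. These likenesses describe 8 libraries, and several of the genes are at low CPM.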

How the data were processed

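RNA values are estimated counts per gene, made by the authors with Salmon 1.1.0 on GRCh38 per the submitters' processing notes, and deposited in 1 table of 8 libraries. They were rounded, filtered with filterByExpr, scaled by TMM and tested with edgeR 4.0.16 (R 4.3.3), with KO1 and KO2 pooled as KO and, for the lines, in a fit of 3 groups. CPM is counts scaled to a library of 1000000, with TMM factors. SE is the log2 fold change divided by the square root of F. The authors' deposited table gives log2 fold changes, their Wald scores and p-values from DESeq2 1.26.0 per the submitters' processing notes, and DESeq2 1.42.0 served as an alternative. Peaks were called with MACS2 2.2.7.1 after Bowtie2 2.4.1 alignment per the submitters' processing notes, at a q of 0.01 per the file headers. The deposited peak lists give pileup signal, −log10 q and fold ratio for each peak. A promoter peak overlapped 2 kb on either side of a RefSeq start by 1 bp or more. For EGR3 and every other gene without a listed start and strand, either end of the gene was used. Of the 15735 genes with a position, 12418 had a start and strand, so the shares over all genes include some windows at gene ends. Sequences and starts are from RefSeq, GRCh38.p14, and 9 of 10 members matched. The fit was tested on simulated data. Whether replicate numbers pair the samples could not be decided, and the main fits left them out. Members and gene lists were chosen with earlier results of these data known. Other genes were mostly named where edgeR or the authors' deposited table passed 0.05, otherwise the 2 with the smallest p in a list. COL1A1, MAP2 and SOX2 were named in addition. FOSL2 peaks, NR4A2, NR4A3, NPAS4, SRF, CREB1 and PECAM1 were added after their values were seen. The count of 1 gene list, on the growth factor response, is not reported here.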

Additional observations from a re-analysis of the deposited data

Results flagged for a closer look

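EGR3 in the 5 KO libraries was set apart by a single library. KO2 replicate 1 had 5.02 CPM while the other KO libraries had 0.94 to 1.91 CPM, a gap that took up 0.763 of the range of the group (critical value 0.71). WT libraries had 0.891 to 1.46 CPM. Chance sets apart about 1 in 20 groups where values are normally distributed, and 10 were examined. These were CPM without a log scale, from the same 5 libraries for each gene, so that rate need not hold here. KO2 replicate 1 was the highest library for 9 of the 10 genes, a count given without the share over all genes.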

How the results depend on the processing

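RLE scaling, no filter on low counts, and a fit of 3 groups left 0 members called in KO against WT by edgeR. DESeq2 called 3 in KO against WT, 1 there without the high-collagen libraries (an alternative chosen after seeing the data), and 4 in KO2 against WT. Leaving out 1 library at a time gave 0 to 5 members called in KO2 against WT and 0 to 1 in KO2 against KO1, both highest without KO1 replicate 2, and 0 in KO against WT and KO1 against WT. With the whole gene and 2 kb on each side, 5 members had a WT peak in place of 2; the wider window itself adds FOSB, NR4A1 and ATF3. Directions turned for JUN without the high-collagen libraries (-0.06 in edgeR and in DESeq2), NR4A1 without KO2 replicate 1 (-0.17, range over libraries left out -0.17 to 0.26) and IER2 without KO1 replicate 3 (0.03, range -0.26 to 0.03). Without the high-collagen libraries they also turned, in edgeR and in DESeq2, for JDP2 (-0.18, -0.19), COL1A2 (-0.28, -0.29), COL5A1 (-0.35, -0.35), DCN (-0.43, -0.45) and POSTN (-0.38, -0.40). The cause was not tested.

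Deviations of same-numbered libraries correlated between -0.321 and 0.267, with no common sign. Deviations centred within groups of 2 or 3 libraries cannot exclude that the numbers pair the samples. With the replicate number as a block, 0 members were called in every contrast, 3 rather than 4 had an unadjusted p under 0.05 in KO against WT, and EGR1 (-0.10) and NR4A1 (-0.04) turned direction. Depth limits FOSB and EGR2, which rest on 3 to 18 counts in WT libraries, and 1 peak list per genotype allows no test of H3K27me3.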
